A study of Mus musculus with 6 samples.

Results

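The genes described here encode ribosomal proteins and proteins of the mitochondrial ribosome and respiratory chain in mouse small intestinal organoids with and without Smarcad1, a chromatin remodelling ATPase. They were chosen by name: listed genes whose symbol starts with Rpl, Rps, Mrpl or Mrps and a digit, with Cox and a digit, or with Nduf, Uqcr, Atp5, Sdh or Timm, leaving out the S6 kinases. The rule took 16 of the 1420 genes in the deposited list: 7 proteins of the large cytosolic subunit (Rpl3, Rpl9, Rpl26, Rpl31, Rpl32, Rpl36 and Rpl39), 3 of the small subunit (Rps2, Rps10 and Rps14), 2 genes that are copies of ribosomal protein genes (Rpl39l and Rps12-ps3), 1 protein of the mitochondrial ribosome (Mrps24) and 3 of the respiratory chain (Ndufaf4, Cox6a2 and Atp5b). It took 0 genes from the Mrpl, Uqcr, Sdh and Timm families. Rpsa, which encodes a protein of the small subunit, carries no digit after Rps and is described separately.

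Isolated crypts grown in a gel form organoids, hollow balls of epithelium, which the study used to look at expression in the absence of immune cells and gut bacteria. mRNA was measured by poly(A)-selected, directional sequencing in 3 wild-type (WT) and 3 Smarcad1 knockout (KO) libraries, all of strain C57BL/6, grown in medium with EGF, Noggin and R-spondin and collected after 5 days from about 600 organoids per condition. The genotype label names Vil-Cre, which is active in the intestinal epithelium, whereas the growth protocol and the methods name ZP3-cre, which deletes in the oocyte and so in all cells, with littermates as controls. The methods describe male mice from 1 targeted line, ages are not given in the sources used here, and the series is described as biological triplicates without naming the animals or cultures, so that p-values measure only the spread between these samples, which may be technical. Values are RPM, reads scaled to a common number of reads per library. Depths read from the smallest step between values were 1.24e+07 to 1.57e+07 reads. Smarcad1 stood at 94.7 to 105 RPM in the WT libraries and at 21.3 to 24.03 RPM in the KO libraries, a log2 change of -2.14 (limma adjusted p = 5.59e-05).

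A ribosome is built from ribosomal RNA and a fixed set of proteins, each present in a single copy in nearly all cases, so that cells make these proteins in matched amounts. The mRNAs of most cytosolic ribosomal proteins are short, abundant and long-lived. They begin with a C followed by a run of pyrimidines, the 5′ terminal oligopyrimidine (TOP) tract, through which their translation follows growth signals from mTORC1. Mitochondria have ribosomes of their own, whose proteins are encoded in the nucleus, and these translate the core subunits of the respiratory chain encoded by mitochondrial DNA. The chain moves electrons to oxygen through complexes I to IV, and ATP synthase uses the proton gradient. Dividing crypt cells make many ribosomes, and absorptive enterocytes are rich in mitochondria.

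The sequence around the annotated start is shown for the 6 cytosolic ribosomal protein genes for which a window was matched, with Rpl39l as the copy of Rpl39, because the TOP tract is the best known feature these genes share. Each window runs from 30 bases before the start to 20 bases of the transcript, as RefSeq gives it for GRCm38.p6. The longest run of C and T that opens with C is in capitals, the first of them where runs are equally long.
Rps10, chr17:27635225-27635274, minus strand: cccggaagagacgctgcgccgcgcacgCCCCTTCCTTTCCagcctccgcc
Rpl31, chr1:39367821-39367870, plus strand: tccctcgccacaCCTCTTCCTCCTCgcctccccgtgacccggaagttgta
Rpl39, chrX:37085203-37085252, minus strand: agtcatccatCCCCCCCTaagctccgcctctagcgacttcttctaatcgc
Rps2, chr17:24720033-24720082, plus strand: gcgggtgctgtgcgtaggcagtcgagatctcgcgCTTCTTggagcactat
Rpl9, chr5:65391412-65391461, minus strand: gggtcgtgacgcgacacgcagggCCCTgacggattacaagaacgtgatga
Rpl26, chr11:68901536-68901585, plus strand: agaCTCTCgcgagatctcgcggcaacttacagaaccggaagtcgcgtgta
Rpl39l, chr16:10170198-10170247, plus strand: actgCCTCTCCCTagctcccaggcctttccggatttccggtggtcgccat
In Rps10 a run of 13 pyrimidines began 3 bases before the annotated start, and 10 of them, opening with C, lie from the start onward. At least 5 pyrimidines in a row from the annotated start onward, the first of them C, were found in 1 of the 10 members with a window, against 2.51% of all 32851 windows of the table. When the run could begin within 5 bases of the annotated start, it was found in 4 members (Rpl31, Rpl39, Rps2 and Rps10), against 12.4% of all windows. In Rpl31 and Rpl39 the runs counted here, of 7 and 5 pyrimidines, are shorter ones than the runs in capitals and lie in small letters. Rpl39 also holds another run as long as the one in capitals, cttcttct in small letters. That run opens more than 5 bases after the annotated start and was not counted. The letters CTTCC, searched on the transcribed strand, were in 3 of the 10 windows (Rpl31, Rps10 and Mrps24) against 10.9% of all, and on either strand in 4 of 10 against 21.8%. The letters CTTTC were in 2 of the 10 on the transcribed strand (Rps10 and Rpl39l) against 6.86%, and in the same number on either strand against 12.5%. A start annotated a few bases away from the true start moves a tract out of place, and no match says only that these letters are not in this window. For Rps2, Rps10 and Rpl39 the whole window lies inside the gene bounds given below. The RefSeq start used for them is therefore not the outermost 5′ end of the gene.

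The 10 cytosolic ribosomal protein genes had higher mean values in KO than in WT, by 1.25-fold (Rpl31) to 1.70-fold (Rps2). Their median log2 change was 0.53, against 0.38 for all 1420 listed genes, a list of both signs with few genes near 0, whose median was -0.35 with a filter on low values. The amount differed widely between the KO libraries: KO replicate 1 stood highest and KO replicate 3 lowest of the KO libraries for 9 of the 10, against 25.8% of listed genes. For 4 genes (Rpl26, Rpl36, Rpl39 and Rps14) KO replicate 3 lay below WT replicate 3, so that KO and WT did not overlap for 12 of the 16 members, against 98.5% of listed genes. With limma on log2(RPM + 0.1), Benjamini-Hochberg adjusted over all listed genes, 9 of the 10 passed an adjusted p of 0.05. Over all 16 members 12 passed as higher in KO and 3 as lower, and Rps14 was higher without passing. The list holds only genes that the authors' own test had called on these libraries, and 99.9% of it passed here, 52.5% higher in KO and 47.4% lower, so the number of members that passed is no result about them. No ribosomal protein gene outside the list was analysed here, so the 10 cannot speak for the much larger full set.

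**Figure D1:**
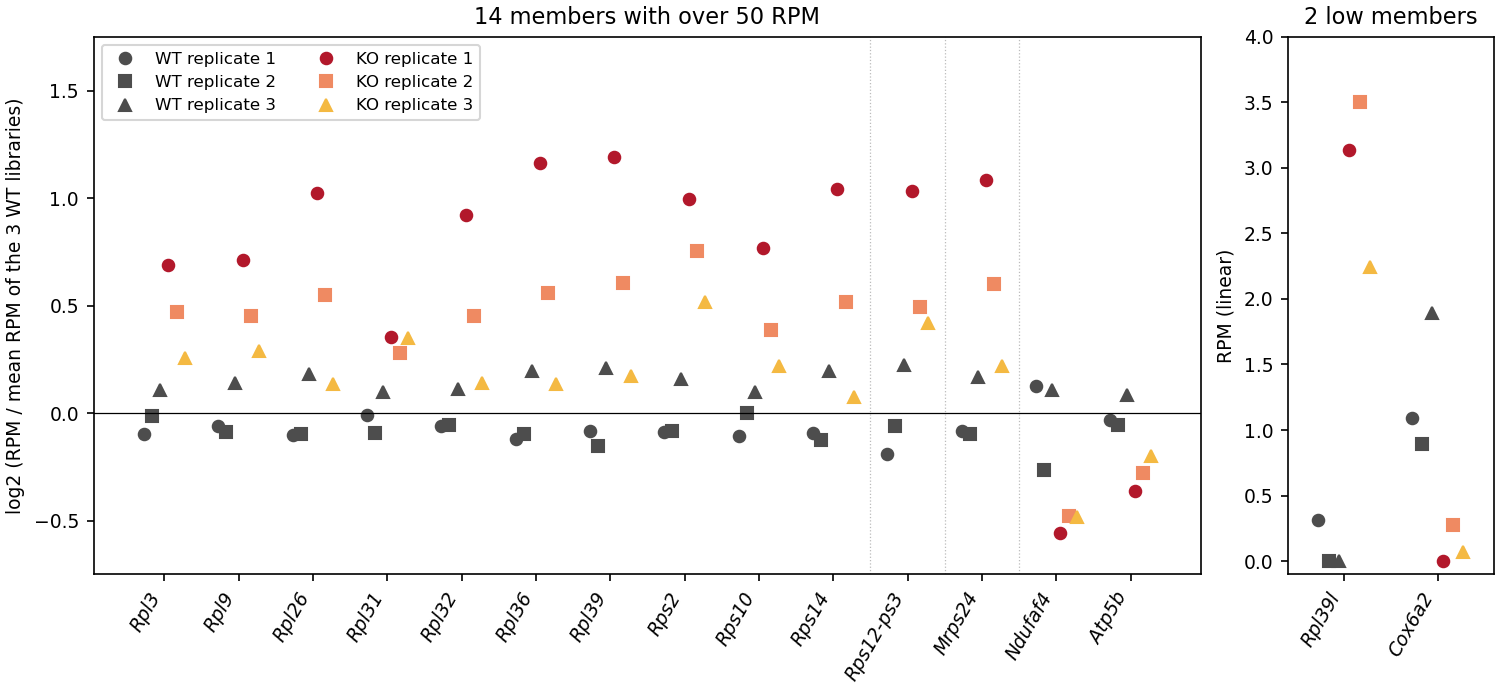
Members of the list by library. Left, log2 of RPM over the mean RPM of the 3 WT libraries for 14 members (points, 1 library each; grey, WT; red, orange and yellow, KO replicates 1 to 3; dotted lines part the cytosolic ribosomal proteins, Rps12-ps3, Mrps24 and the respiratory chain); right, RPM of the 2 low members on a linear axis. KO replicate 1 lies highest and KO replicate 3 lowest of the KO libraries for 9 of the 10 cytosolic ribosomal protein genes, whereas the KO libraries of Rpl31, Ndufaf4 and Atp5b lie close together.

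Among the large subunit proteins, Rpl31 was the most even. It lies on chr1:39367842-39371911 (plus strand, GRCm38) and its protein sits near the exit of the tunnel through which new chains leave the ribosome. Rpl31 stood at 226, 213 and 243 RPM in WT replicates 1 to 3 and at 290.3, 276 and 289 RPM in KO replicates 1 to 3. The groups did not overlap and no KO library stood apart. Rpl31 had the smallest log2 change of the 10 genes, 0.33 (standard error, SE, 0.10, limma adjusted p = 0.0166).

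Rpl9 (chr5:65388364-65391444, minus strand) encodes a protein at the base of the lateral stalk, where translation factors bind. It stood at 70.7, 69.4 and 81.4 RPM in WT and at 121, 101 and 90.2 RPM in KO, so that the groups did not overlap and KO replicate 3 came closest to WT. Rpl9 had a log2 change of 0.49 (SE 0.14, limma adjusted p = 0.0152). Rpl3 (chr15:80077794-80091868, minus strand) encodes a protein that reaches towards the peptidyl transferase centre. Its values were 423, 448 and 487 RPM in WT and 728, 626 and 539.7 RPM in KO, again without overlap. The log2 change of Rpl3 was 0.47 (SE 0.14, limma adjusted p = 0.0159).

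Rpl32 (chr6:115805505-115808747, minus strand) had the highest level per length of the listed large subunit genes and stood at 1665, 1673 and 1876 RPM in WT and 3293, 2377 and 1912 RPM in KO. KO replicate 1 was 1.89 times the WT mean, and KO replicate 3 exceeded WT replicate 3 by a margin smaller than the SD of 119.7 RPM among the WT libraries. On the log2 scale KO exceeded WT by 0.51 (SE 0.20, limma adjusted p = 0.0435).

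The other 3 large subunit genes overlapped between groups. Rpl26 (chr11:68901583-68906989, plus strand), whose protein lies near the tunnel exit and which is also known for binding p53 mRNA, stood at 512, 514 and 624 RPM in WT and at 1118, 804 and 605 RPM in KO. Rpl36 (chr17:56613395-56614243, plus strand) stood at 207, 211 and 258 RPM in WT and at 505, 332 and 247 RPM in KO. Rpl39 (chrX:37082520-37085402, minus strand), one of the smallest ribosomal proteins and part of the tunnel wall, stood at 270.1, 258 and 331 RPM in WT and at 653, 435 and 322 RPM in KO. In each of the 3, KO replicate 3 fell inside the WT range and KO replicate 1 was 2.03 to 2.28 times the WT mean. The limma log2 changes were 0.57 (SE 0.23, adjusted p = 0.0433) for Rpl26, 0.63 (SE 0.26, adjusted p = 0.0498) for Rpl36 and 0.66 (SE 0.26, adjusted p = 0.0410) for Rpl39. An exact permutation test on these overlapping libraries gave p = 0.2, two-sided, where the smallest p that 3 against 3 libraries allow is 0.1.

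In the small subunit Rps2 was the clearest. Rps2 (chr17:24718116-24721929, plus strand), a protein near the mRNA entry channel, stood at 1101, 1105 and 1307 RPM in WT and at 2334, 1977 and 1674 RPM in KO. The lowest KO library was 1.43 times the WT mean, the largest such ratio among the 10 genes. The log2 change was 0.76 (SE 0.15, limma adjusted p = 0.00542), and the means were 1171 ± 118 RPM in WT and 1995 ± 330.2 RPM in KO (SD, n = 3).

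Rps10 (chr17:27630422-27636629, minus strand) encodes a protein in the head of the small subunit, and its RefSeq start, inside these bounds, carries the pyrimidine run shown above. Rps10 stood at 322, 347 and 371 RPM in WT and at 591, 453 and 403 RPM in KO. The groups did not overlap, and the log2 change was 0.46 (SE 0.16, limma adjusted p = 0.0272). Rps14 (chr18:60774510-60778546, plus strand), a protein of the platform of the small subunit, stood at 1979, 1931 and 2413 RPM in WT and at 4336, 3015 and 2219 RPM in KO. KO replicate 3 lay below WT replicate 3, and Rps14 was the only one of the 1420 listed genes that did not pass limma here (log2 change 0.55, SE 0.25, adjusted p = 0.0638).

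Rpsa, the ribosomal protein also known as the laminin receptor, followed the same arrangement of libraries at 721, 736 and 854 RPM in WT and 1491, 1116 and 899.9 RPM in KO. Its log2 change was 0.57 (limma adjusted p = 0.0249), and 0.24 with the length trend removed (adjusted p = 0.223).

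Per kilobase of transcript, which allows levels to be compared between genes, WT means ran from 100.1 RPM per kb for Rpl9 to 2685 RPM per kb for Rps14, with Rpl32 at 1918 and Rps2 at 1071. In KO the same pair marked the ends, at 141 and 4064 RPM per kb. The proteins are needed in equal amounts, but only uniquely mapped reads were counted and ribosomal protein genes have many processed copies in the genome. GENCODE M21 names 24 pseudogenes after Rpl31, 11 after Rps2, 8 after Rpl36, 7 after Rpl9, 6 after Rpl26, 4 after Rps10, 2 after Rpl3, 1 each after Rpl32 and Rpl39 and 0 after Rps14. The part of lost multi-mapping reads in these levels was not tested.

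The difference between KO libraries was measured for each gene as the log2 ratio of KO replicate 1 to KO replicate 3. KO replicate 1 exceeded KO replicate 3 in all 10 cytosolic ribosomal protein genes, and its log2 ratio had a median of 0.67, against -0.08 over all listed genes, of which 42.2% had KO replicate 1 above KO replicate 3. It was 1.03 for Rpl36, 1.02 for Rpl39, 0.97 for Rps14, 0.89 for Rpl26 and 0.78 for Rpl32. It was 0.55 for Rps10, 0.48 for Rps2, 0.43 for Rpl3 and 0.42 for Rpl9, and 0.00 for Rpl31. For Rpl26, Rpl32, Rpl36, Rpl39, Rps10 and Rps14 this log2 ratio between single KO libraries was larger than the gene's own log2 change between KO and WT. KO replicate 1 was highest with KO replicate 3 lowest in 11 of all 16 members.

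Against the WT mean the median log2 difference of the 10 genes was 0.96 in KO replicate 1, 0.50 in KO replicate 2 and 0.20 in KO replicate 3. Summed over the 10 genes, the WT libraries held 6777, 6769 and 7993 RPM and the KO libraries 13969, 10398 and 8301 RPM. KO replicate 1 thus held 1.95 times the WT mean, KO replicate 2 1.45 times and KO replicate 3 1.16 times, and KO replicate 3 was 1.04 times WT replicate 3. The mean ratio of KO to WT sums was 1.52, and it was 1.30 without KO replicate 1 and 1.70 without KO replicate 3. The median coefficient of variation of the 10 genes was 24.0% in KO and 9.48% in WT, against 13.4% and 8.34% over all listed genes.

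The WT libraries were not level either. WT replicate 3 was the highest WT library for each of the 10 genes and for 14 of the 16 members, against 35.6% of listed genes. It exceeded the mean of the other WT libraries by a median log2 difference of 0.23 over the 10 genes.

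Transcript length moved with these differences. The 10 genes have transcripts of 383 to 1351 nt with a median of 836 nt, against a median of 2782 nt over the listed genes with a length. Of the other listed genes 113 have transcripts under 1100 nt. In these short genes, which are of many kinds, the median log2 ratio of KO replicate 1 to KO replicate 3 was 0.52, and 87 of the 113 were higher in KO. Over all 113 the median log2 change was 0.73. In the 349 listed genes with the longest transcripts (4145 nt or more) the median log2 ratio was -0.35. Over 1381 other listed genes the ratio had a Spearman rho of -0.480 with length, and over the 10 genes, which share libraries and are few, rho was -0.697. The log2 change between KO and WT had a weaker rho with length, -0.204 over the other listed genes and -0.394 over the 10. These correlations are across genes, which are not independent replicates, and are descriptions. Within the 10, Rpl36 with the shortest transcript (383 nt) had the largest ratio and Rpl31 (1049 nt) the smallest, while Rpl3 with the longest (1351 nt) stood at 0.43.

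**Figure D2:**
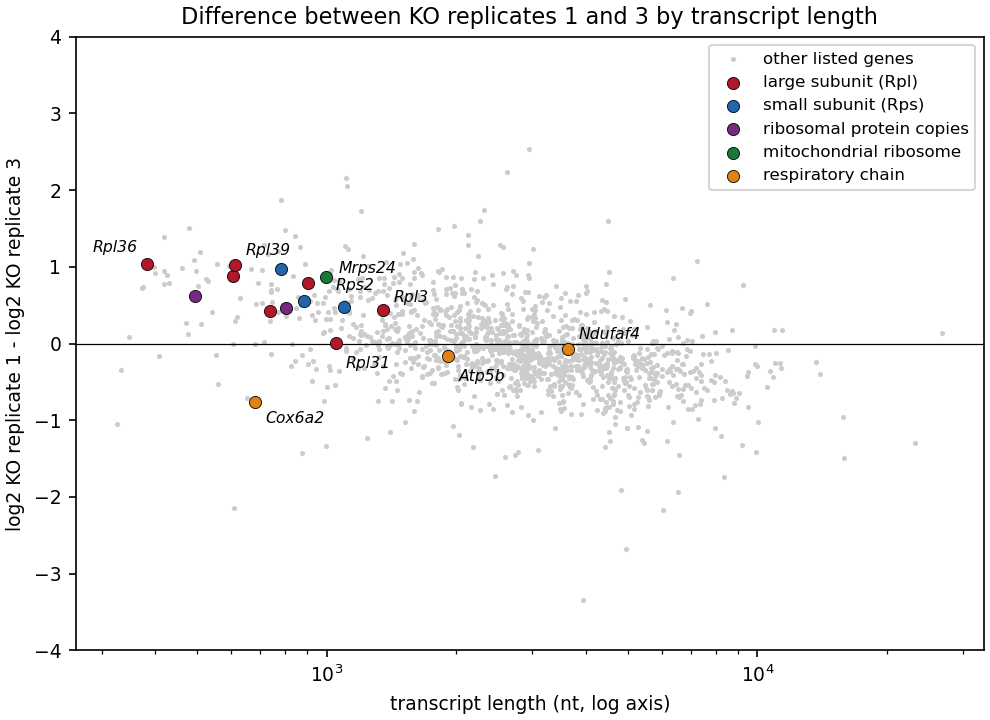
Log2 ratio of KO replicate 1 to KO replicate 3 for each listed gene (vertical axis) against transcript length in nt (log axis), with members in colour over the other listed genes in grey. Ribosomal protein genes lie among other short genes above 0, Rpl31 lies at 0.00 and Cox6a2 below 0 at -0.77.

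A loess curve of each library's log2 values with transcript length was then removed and limma was run again on the 1397 genes with a length. Of these genes 84.3% still passed, 37.2% as higher in KO and 47.1% as lower. Of the 10 cytosolic ribosomal protein genes 0 passed limma, also at an unadjusted p under 0.05, and 2 had values above 0 (Rps2 0.24 and Rpl3 0.0076) and 8 below 0, from -0.23 (Rpl36) to -0.046 (Rpl39). The smallest adjusted p among the 10 was 0.0607, for Rps2. Their median was -0.10, against -0.04 over all genes. The curve was fitted on listed genes only, all called by the authors' test, so it also takes out any KO change that short listed genes share. The other listed genes under 1100 nt had a median log2 change of 0.73 before removal, above the 0.53 of the 10. A fall towards 0 was therefore built into this step and does not show that the rise was technical. Differences of short transcripts in general and differences of the gene families that are short cannot be told apart here. With the curve fitted on the other listed genes alone, 0 of the 10 passed, also at an unadjusted p under 0.05, where 36.9% of all passed as higher in KO, and the median was -0.13.

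**Figure D3:**
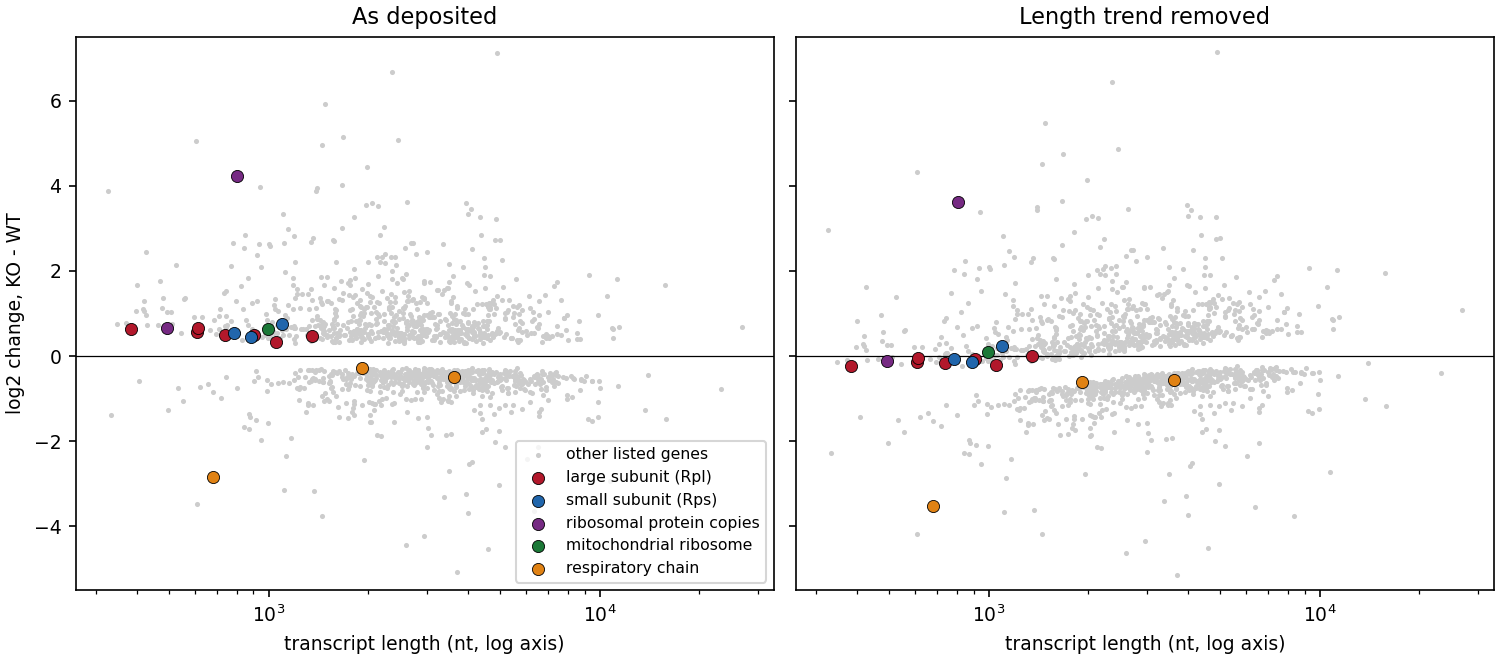
Log2 change between KO and WT for each listed gene against transcript length in nt (log axis), as deposited (left) and after removal of the length trend of each library (right), with members in colour. The 10 cytosolic ribosomal protein genes move from 0.33 to 0.76 on the left to -0.23 to 0.24 on the right, whereas Rpl39l, Ndufaf4, Cox6a2 and Atp5b stay away from 0.

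Leaving out a library changed how many of the 10 genes passed limma as higher in KO. Without KO replicate 3 all 10 passed, against 51.7% of listed genes, with a median log2 change of 0.74. Without KO replicate 1, 5 passed, against 49.9% of listed genes, with a median of 0.35, close to the 0.34 of all listed genes in that fit. Without KO replicate 2, 4 passed, against 43.7%. Without a WT library 2 passed (WT replicate 1, against 45.8%), 3 passed (WT replicate 2, against 47.7%) or 5 passed (WT replicate 3, against 47.3%). With each library centred on its median listed gene 3 of the 10 passed, against 48.3%, and with the replicate number as a block 4 passed, against 50.3%. The 10 genes all passed with a pseudocount of 1 or an intensity trend, each against 52.6%, and with a filter on low values, against 44.6%. With the block and the length trend removed together 0 passed, against 35.4%.

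**Figure D4:**
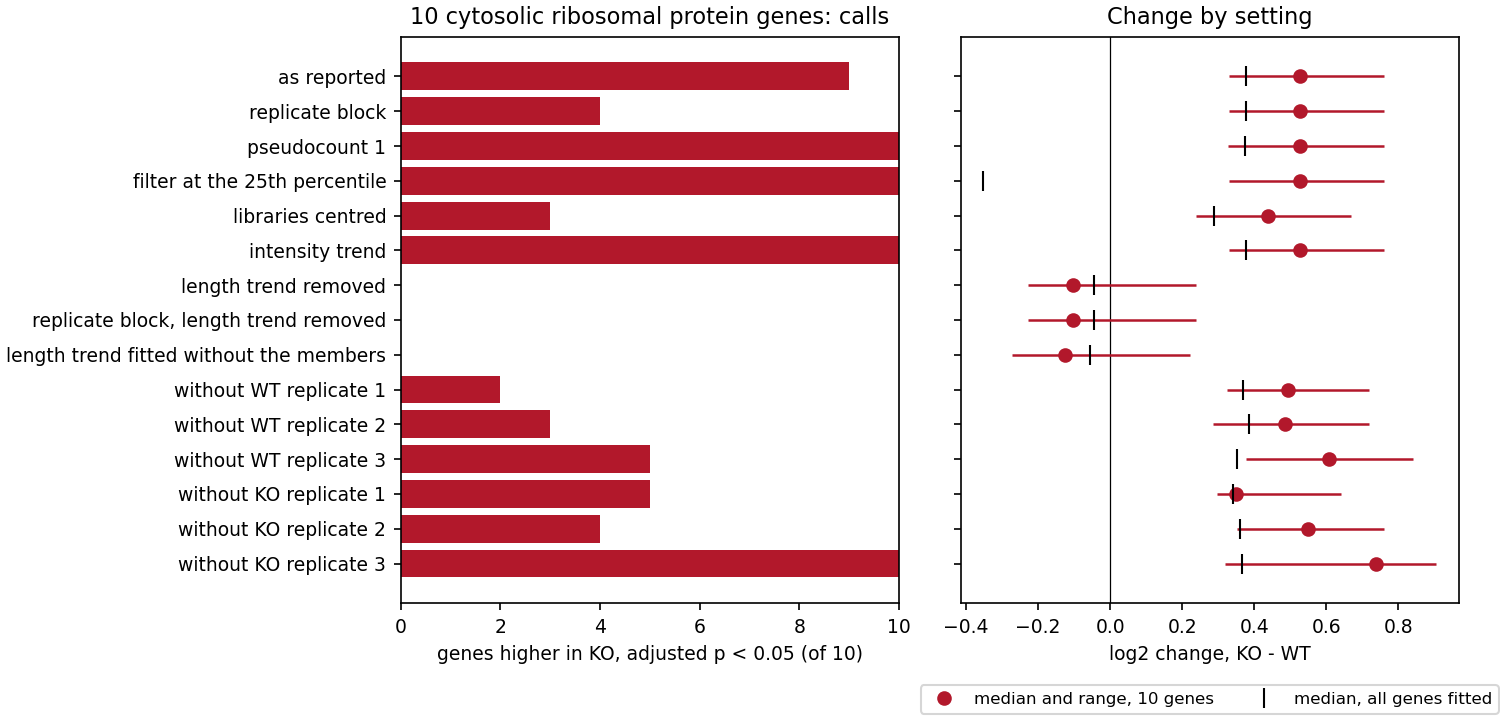
The 10 cytosolic ribosomal protein genes under each setting: left, number with limma adjusted p under 0.05 and higher in KO; right, median (point) and range (line) of their log2 change, with the median of all genes fitted as a black tick. No gene is called once the length trend is removed, and the count runs from 2 to 10 when single libraries are left out.

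The copies behaved unlike each other. Rpl39l, a paralog of Rpl39 that is best known from the testis and some tumours, is on chr16:10170226-10174911 (plus strand). It was at 0.311, 0 and 0 RPM in WT and at 3.14, 3.50 and 2.24 RPM in KO, which, with the smallest step taken as 1 read, correspond to 4, 0 and 0 reads against 39, 51 and 32 reads. Every KO library was above every WT library, and KO replicate 2 was highest. Pooled over libraries, KO was 32.4 times WT with an exact 95% interval of 12.3 to 121, which covers counting error only. The limma log2 change was 4.23 (SE 0.56, adjusted p = 0.00171) and 3.61 with the length trend removed (adjusted p = 0.00176), and it depended on the pseudocount, being 1.84 with a pseudocount of 1 (adjusted p = 0.000172). Its level stayed low: 3.68 RPM per kb in KO, against 768 RPM per kb for Rpl39. Rpl39l was thus the member with the largest change, and its start, shown above, has a run of 9 pyrimidines that begins 26 bases before the annotated start.

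Rps12-ps3 (chr19:59322290-59322783, plus strand) is a single-exon copy of Rps12 that carries a pseudogene name, although GENCODE M21 gives it as protein coding, and it lies within the bounds of Pdzd8 on the other strand. It stood at 56.7, 62.0 and 75.5 RPM in WT and at 133, 91.3 and 86.7 RPM in KO, without overlap. Its log2 change was 0.66 (SE 0.20, limma adjusted p = 0.0170) and -0.12 with the length trend removed (adjusted p = 0.359). Near-identical copies can share reads in counting, so its level is uncertain, and Rps12 was not analysed here.

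Mrps24 (chr11:5703983-5715680, minus strand), a protein of the small subunit of the mitochondrial ribosome, stood at 77.5, 76.7 and 92.0 RPM in WT and at 174, 125 and 95.6 RPM in KO. KO replicate 1 was 2.12 times the WT mean and KO replicate 3 was 1.17 times it. The log2 change was 0.64 (SE 0.22, limma adjusted p = 0.0271), and 0.09 with the length trend removed (adjusted p = 0.585). Its libraries stood in the order of the cytosolic ribosomal proteins, with a log2 ratio of KO replicate 1 to KO replicate 3 of 0.86.

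The respiratory chain members were lower in KO. Atp5b, the catalytic beta subunit of ATP synthase (chr10:128083273-128090391, plus strand), stood at 4689.9, 4626 and 5088 RPM in WT and at 3730.1, 3956 and 4174 RPM in KO. The groups did not overlap. The log2 change was -0.28 (SE 0.10, limma adjusted p = 0.0291), with KO at 0.823 of the WT mean, and -0.62 with the length trend removed (adjusted p = 0.00225). Atp5b no longer passed limma with the replicate number as a block (adjusted p = 0.0561). It also did not pass limma without KO replicate 1 (adjusted p = 0.0566), KO replicate 2 (0.0810), WT replicate 1 (0.0711), WT replicate 2 (0.0528) or WT replicate 3 (0.0948). Per kilobase, the WT mean of Atp5b was 2506 RPM, near the 2685 RPM of Rps14.

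Ndufaf4 (chr4:24898083-24905001, plus strand), an assembly factor of complex I, stood at 97.4, 74.3 and 96.1 RPM in WT and at 60.6, 64.03 and 63.8 RPM in KO. The KO libraries were closer to each other (coefficient of variation 3.02%) than the WT libraries (14.5%), and the groups did not overlap. The log2 change was -0.50 (SE 0.13, limma adjusted p = 0.0122) and -0.56 with the length trend removed (adjusted p = 0.00685).

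Cox6a2 (chr7:128205435-128206387, minus strand) encodes the heart and muscle form of a subunit of complex IV. It was low, with the KO values near or under the counting floor of 3 reads, at 1.09, 0.894 and 1.89 RPM in WT and at 0, 0.275 and 0.0701 RPM in KO, or, by the same step, 14, 14 and 29 reads against 0, 4 and 1. Pooled over libraries, WT was 10.7 times KO (exact 95% interval 4.34 to 34.3, counting error only). The limma log2 change was -2.84 (SE 0.50, adjusted p = 0.00373) and -3.52 with the length trend removed (adjusted p = 0.00178), and it too depended on the pseudocount, being -1.02 with a pseudocount of 1 (adjusted p = 0.00217). Cox6a2, with a short transcript of 680 nt, was lower in KO where most short genes of the list were higher.

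Several members share their position with another gene. On the other strand, Rpl31 overlaps Tbc1d8, Rpl32 overlaps Cand2, Rpl3 overlaps Syngr1, Rps2 overlaps Snhg9, Rps10 overlaps Gm15420 and Cox6a2 overlaps Itgad. On the same strand Mrps24 overlaps Urgcp and Rps10 the read-through gene RPS10-NUDT3. None of these neighbours is in the list, and whether counting used the strand of the directional libraries is not given in the sources used here.

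Of the other listed genes of translation most had lower values in KO as deposited, in a list of which 47.4% passed as lower and 52.5% as higher, and the difference from the ribosomal protein genes was not tested. Of 23 aminoacyl-tRNA synthetases and partners searched for, which load tRNAs with amino acids, 10 were listed and all 10 were lower in KO, with a median log2 change of -0.61. Cars was at 195 RPM in WT and 104 RPM in KO (log2 change -0.89, limma adjusted p = 0.00337) and Mars at 265 and 147 RPM (log2 change -0.85, adjusted p = 0.00223). All 10 also passed as lower with the length trend removed, against 47.1% of listed genes. Among initiation factors 6 genes were listed, 5 lower and 1 higher, including Eif4ebp1, the repressor of cap-dependent translation (log2 change -0.58, limma adjusted p = 0.00748), and Eif2s1 (-0.37, adjusted p = 0.0254). The 1 higher gene was the Y-linked Eif2s3y (0.43, adjusted p = 0.00866), which stood at 0.079 with the length trend removed (adjusted p = 0.454). Abce1, which recycles ribosomes, and Gspt1, a release factor, were lower, with log2 changes of -0.45 (limma adjusted p = 0.0399) and -0.41 (adjusted p = 0.0232). Of 85 genes of ribosome biogenesis searched for, 6 were listed, 5 lower and 1 higher: Bysl (-0.60) and Nol10 (-0.58) were the lowest and Pes1 (0.36) was the 1 above 0. All 6 passed limma, but Pes1 did not with the length trend removed (0.23, adjusted p = 0.0507).

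The listed nuclear genes of mitochondrial metabolism are few, and the share of all listed genes that passed as lower, 47.4% as deposited and 47.1% with the length trend removed, is the background to their counts. Of 19 citric acid cycle enzymes 5 were listed, all lower, with Dlat (log2 change -0.66, limma adjusted p = 0.00753) and Mdh2 (-0.52, adjusted p = 0.00395) the lowest. Of 43 electron carriers and assembly factors 6 were listed and 5 were lower. Lyrm7, an assembly factor of complex III, was at 24.9 RPM in WT and 6.97 RPM in KO (log2 change -1.85, limma adjusted p = 0.000634), and Gpd2 had a log2 change of -0.62 (adjusted p = 0.00506), while Coq8a, needed for coenzyme Q, was higher (0.42, adjusted p = 0.00958). The 4 listed mitochondrial carriers were lower, led by Slc25a45 (-0.50) and Slc25a15 (-0.48), and so were Lonp1 (-0.66) and Hspa9 (-0.46), a protease and a chaperone of the matrix. Gfm1, a mitochondrial elongation factor (-0.54), and Ppargc1a, a coactivator of mitochondrial genes (-0.47), were lower as well. The 1 listed gene of mitochondrial DNA, mt-Nd3 of complex I, was higher, at 6.22 to 6.66 RPM in WT and 10.4 to 11.46 RPM in KO (log2 change 0.76, limma adjusted p = 0.00146), and stood at -0.13 with the length trend removed (adjusted p = 0.472). From the import machinery of the outer membrane 0 genes were listed.

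**Figure D5:**
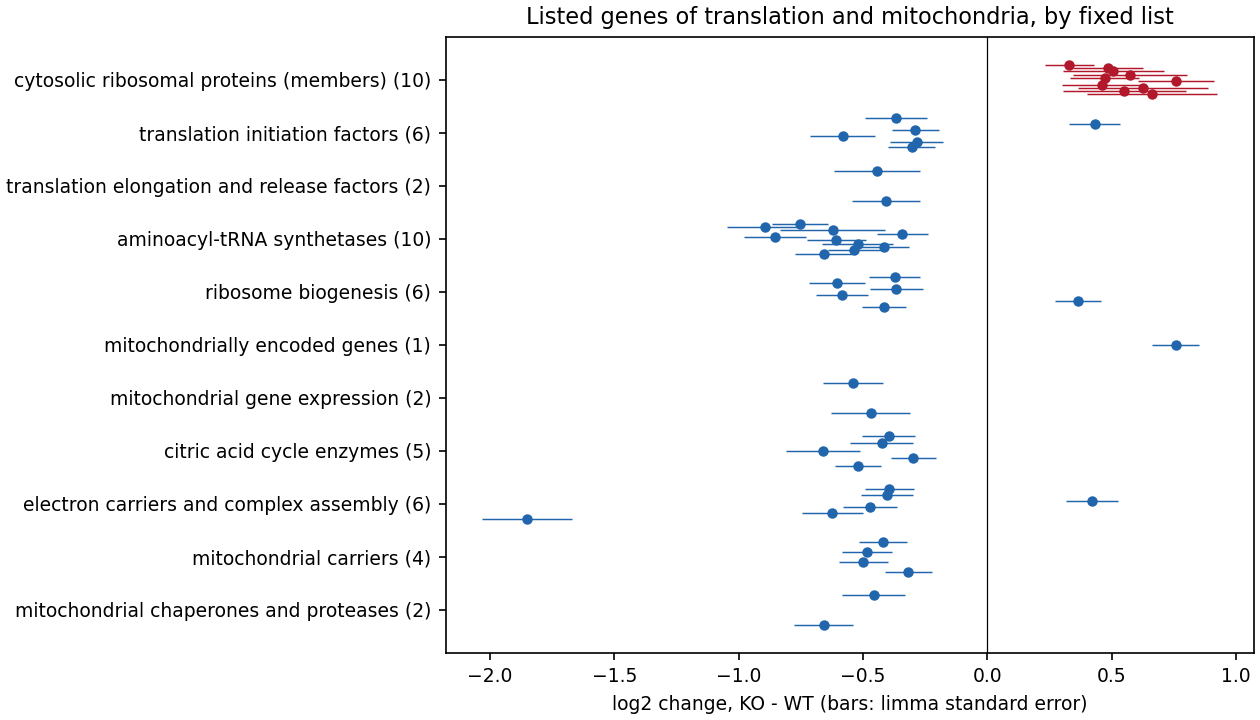
Log2 change between KO and WT of the 10 cytosolic ribosomal protein genes (red) and of the listed genes of each other translation and mitochondrial list (blue), with the limma standard error as bars and the number of listed genes in brackets. The ribosomal proteins lie between 0.33 and 0.76, whereas the 10 aminoacyl-tRNA synthetases lie between -0.89 and -0.34.

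Only cell type markers in the list could be described. The authors' test had called all of them, so that they differed between groups is no result about them. Markers searched for but not listed were not analysed here. All 10 listed Paneth cell markers of 13 searched for passed as higher in KO, against 52.5% of listed genes, and 6 did so with the length trend removed, against 37.2%. Their summed level was 9343 to 10731 RPM in the WT libraries and 19918 to 29604 RPM in the KO libraries, and the antimicrobial lectins Reg3b (log2 change 2.66) and Reg3g (2.13) rose most. The median log2 ratio of KO replicate 1 to KO replicate 3 of these markers was 0.79, and their median transcript length was 740 nt.

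The 3 listed goblet markers of 10 and the 3 listed enteroendocrine markers of 14 passed as higher too, against 52.5% of listed genes. With the length trend removed 1 of each 3 passed (Muc2 and Nts), against 37.2%, which is near the background. Goblet markers summed to 1749 to 1995 RPM in WT and 2754 to 5054 RPM in KO, with the largest log2 changes in Spink4 (1.07, and 0.23 with the length trend removed, limma adjusted p = 0.127) and Tff3 (1.04, and 0.27, adjusted p = 0.126). Enteroendocrine markers summed to 207 to 249 RPM in WT and 342 to 478 RPM in KO, with the largest log2 changes in the peptide hormone genes Nts (1.12) and Sct (1.03, and 0.26 with the length trend removed, limma adjusted p = 0.254). The 9 listed enterocyte markers of 16 passed as lower, against 47.4% of listed genes, and 8 of them with the length trend removed, against 47.1%. Their sums were 21558 to 24517 RPM in WT and 15111 to 16611 RPM in KO. Among them Apoa4 (-1.12) and Fabp1 (-1.04), which serve lipid handling, fell most. The 4 listed stem cell markers of 13 passed as higher, against 52.5% of listed genes, and 3 of them with the length trend removed, against 37.2%. They summed to 322 to 367 RPM in WT and 450 to 523 RPM in KO. The largest log2 changes were those of Gkn3 (0.84, and 0.24 with the length trend removed, limma adjusted p = 0.191) and Sox9 (0.56, and 0.53, adjusted p = 0.00580).

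The 1 listed tuft cell marker of 11, Dclk1, was lower (-0.90). The 2 listed immune markers of 10 went apart, Lyz2 higher (1.46) and Itgam lower (-1.15). The 15 proliferation markers, 12 markers of fibroblasts and muscle and 6 erythroid markers searched for gave 0 listed genes. These short lists do not cover every gene of a cell type. The defining epithelial markers Lyz1, Muc2 and Alpi were all well above the floor in every library. In these bulk samples fewer cells of a type and less RNA per cell cannot be told apart, and the part of cell type shares in the ribosomal protein values was not tested.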

How the data were processed

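mRNA was measured in 3 WT and 3 KO organoid samples, grouped by their titles. According to the submitters' processing notes and the methods, the authors trimmed reads with Trim Galore 0.4.2, mapped them to GRCm38 with HISAT2 2.0.3, and used SeqMonk to count uniquely mapped reads on the exons of each gene's merged transcripts. The authors tested raw counts with DESeq2 and listed the genes that passed. The deposited values are RPM, scaled by the authors to the reads of each library. A further deposited column holds the FDR (corrected p-value) of the authors' comparison, which was not used. In every library 100% of the values under 100 reads were whole multiples of a step (within 0.02 reads), taken as 1 read, which gave depths of 1.24e+07 to 1.57e+07 reads and a floor of 3 reads at 0.192 to 0.242 RPM. Reads taken from these steps were not accepted as recovered counts, so no count test across genes was run. The read numbers given for Rpl39l and Cox6a2, and the comparison of replicates below, rest on the step.

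All 1420 genes were fitted with limma 3.58.1 in R 4.3.3 on log2(RPM + 0.1), two-sided, without covariates, in place of the authors' count test, with Benjamini-Hochberg adjustment over the table and a threshold of 0.05. A log2 change on this scale understates the change of low genes. On reads taken from the step, the chi-square per degree of freedom was 14.8 to 22.8 between WT replicates and 45.01 to 150.5 between KO replicates. It was highest between KO replicates 1 and 3. By this measure no library was the same library sequenced again. The measure cannot tell separate animals or cultures from separate preparations of 1 culture. Each library was counted as 1 replicate. Genes were joined with GENCODE M21 by symbol and position. This gave 1397 matches, all 16 members among them, and transcript lengths (APPRIS principal, otherwise longest transcript). The 23 genes without a length were left out of the length fits, whose loess span was 0.75. Of the 16 members, 10 have a printable RefSeq promoter window (GRCm38.p6).

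Every member is named. Of each other list, the 2 largest rises and 2 largest falls are named where it has at least 3 listed genes, and otherwise every gene. Members and lists were chosen with earlier results of these data known. The alternatives were a replicate block, a pseudocount of 1, a filter on the mean level at its 25th percentile, libraries centred on their median listed gene, an intensity trend, removal of the length trend without and with the block, a minimum log2 change of 1 and leaving out each library. The length trend fitted without the members was added after seeing the data.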

Additional observations from a re-analysis of the deposited data

How the results depend on the processing

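All values come from limma. Of the 236 comparisons of a single gene with an alternative, 148 kept their direction and side of the threshold, 56 lost the call, 4 gained it and 28 turned, all of them under a length trend. The members that passed, 15 as reported, numbered 9 with the replicate block, 8 with libraries centred, 4 with the length trend removed (4 also with the block or with the trend fitted without the members), 2 with a minimum log2 change of 1, and 5 to 16 when a library was left out (5 without WT replicate 1, 7 without WT replicate 2, 8 without KO replicate 2, 16 without KO replicate 3). Of all genes in the same fits 95.1% passed with the block, 95.7% centred, 84.3% with the length trend removed (81.8% with the block, 84.0% with the trend fitted without the members) and 80.1% to 98.9% without a library. For the minimum change that share was not counted, so its counts are no result about the members. The members higher in KO, 12 as reported, numbered 7, 5, 1 (1 and 1), 1 and 3 to 13 in the same order, and the 3 lower became 1 with the minimum change and 2 with the filter on low values (which drops Cox6a2), with the replicate block (Atp5b lost, adjusted p = 0.0561) and without any 1 library other than KO replicate 3 (Atp5b lost). Of all genes 50.3% passed as higher with the block, 48.3% centred and 37.2% with the length trend removed. That share was 35.4% with the block and length trend together, 36.9% with the trend fitted without the members and 43.7% to 51.7% without a library. As lower, 47.4% passed as reported and 47.1% with the length trend removed, and the share is not given for the other settings. The 9 cytosolic ribosomal protein genes that passed became 4, 3, 0 (0 and 0), 0 and 2 to 10 (2 without WT replicate 1, 3 without WT replicate 2, 4 without KO replicate 2, 5 without WT replicate 3 or KO replicate 1). The shares of all genes that passed as higher are the background to these counts, with none for the minimum change. Leaving out a library also lowers the number of samples, and the cause of the other differences was not tested. Centring moved the median of all genes from 0.38 to 0.29.

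With the length trend removed, the median log2 change was -0.12 for the members (-0.15 with the trend fitted without them) and -0.10 for the 10 cytosolic genes (-0.13), the same with the block. The changes that turned were Rpl31 -0.20 (-0.22), Rpl9 -0.16 (-0.19), Rpl32 -0.074 (-0.097), Rpl26 -0.14 (-0.17), Rps10 -0.13 (-0.15), Rpl36 -0.23 (-0.27), Rps14 -0.077 (-0.10), Rps12-ps3 -0.12 (-0.15) and Rpl39 -0.046 (-0.077), the same with the block, and with the trend fitted without the members also Rpl3 (-0.0027). The median log2 ratio of KO replicate 1 to KO replicate 3 of the members moved from 0.52 to 0.17. Members with a pyrimidine run at the start numbered 4 in place of 1 within 5 bases.

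The replicate numbers share only a number: deviations of same-numbered libraries correlated at -0.084, 0.090 and 0.061. The block left 1351 of 1420 genes past the threshold, against 1419 without it. Of the members, depth limits Rpl39l and Cox6a2, with 4 WT and 5 KO reads, and a pseudocount of 1 brings their log2 changes from 4.23 to 1.84 and from -2.84 to -1.02.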
